A study of Homo sapiens with 13 samples.

Results

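The 10 genes described here carry, relay or restrain signals of transforming growth factor beta (TGF-beta) and activin: the ligand genes TGFB1, TGFB2 and INHBA, the receptor gene TGFBR1, the signal carriers SMAD2 and SMAD3, the feedback inhibitors SMAD7, PMEPA1 and SKIL, and the induced matrix gene TGFBI. They were chosen by name, and all 10 were found among the 16999 gene symbols that the 3 deposited count tables share. The libraries come from A549, a human lung adenocarcinoma cell line, in a study of a unit on chromosome 17 that holds PRR11, SKA2 and 2 microRNAs, miR-301a and miR-454. Poly(A) RNA was sequenced from 13 cultures in 4 sets, 1 library per group, all kept in medium with serum. The first set holds a stable line with a guide RNA that represses the shared promoter of PRR11 and SKA2 (CRISPRi_PRR11+SKA2 promoter-sgRNA#1) and its control, CRISPRi_Mock sgRNA. Another set holds stable lentiviral lines made to express PRR11 (LV-PRR11), SKA2 (LV-SKA2) or both (LV-P+S), with LV-vector-PS as control. The next set holds the like for miR-301a (LV-miR301a), miR-454 (LV-miR454) or both (LV-3+4), with LV-vector-34 as control. The CMV promoter of the pCDH vector drove expression in both lentiviral sets. The last set holds lines with a knockout of either microRNA precursor (CRISPRd_miR301a-#2 and CRISPRd_miR454-#1) and CRISPRd_Control. The sources used here do not say whether any line is a single clone.

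TGF-beta ligands are secreted in a latent form, and once released they bring together a type 2 and a type 1 receptor, of which TGFBR1 is the type 1 kinase. The kinase phosphorylates SMAD2 and SMAD3, which enter the nucleus with SMAD4 and switch on genes that include their own inhibitors, such as SMAD7 and PMEPA1. In epithelial cancer cells the pathway is known for slowing growth, for raising matrix genes and for moving cells toward a mesenchymal state.

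The microRNAs of the study share their seed, the bases 2 to 8 that pair with target messages, and 6 human mature microRNAs carry this seed in RefSeq. Both sequences are shown with the seed in capitals because a site that pairs with the seed of either pairs with both (RefSeq, GRCh38.p14, minus strand of chromosome 17).
hsa-miR-301a-3p: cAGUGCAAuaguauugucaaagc
hsa-miR-454-3p: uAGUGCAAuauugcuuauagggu

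Sites that match the seed were searched on the sense strand of the longest annotated 3′ UTR of each coding gene (GENCODE 29, GRCh38). A site was TTGCACT (7mer-m8), TGCACTA (7mer-A1) or TTGCACTA, which holds both and was counted as an 8mer. Of 19115 coding genes, 17.3% had any site and 2.80% had an 8mer. Among the 10 genes, 6 had a site (TGFB1, TGFB2, INHBA, TGFBR1, SMAD2 and PMEPA1), 8 sites in all, and 3 had an 8mer. SMAD3, SMAD7, SKIL and TGFBI had none of these letters in the window searched. UTR length bears on such counts: of genes with UTRs of like length, 8.78% had a site for TGFB1, 32.1% for TGFB2, 42.8% for INHBA, 35.3% for PMEPA1 and 44.6% for TGFBR1. SMAD2, with a UTR of 32870 bases, had only 2 genes of like length, itself included, and 100% had a site. No share of 8mers among genes of like UTR length was computed. The 8mers of the genes whose levels differed in LV-miR454, and both sites of TGFBR1, are shown with the site in capitals.
TGFB2, 8mer, chr1:218442559-218442588, plus strand: tatagtttgacTTGCACTAcaaatgcattt
INHBA, 8mer, chr7:41688681-41688710, minus strand: tcgtttactatTTGCACTAcaatggtgttt
PMEPA1, 8mer, chr20:57651423-57651452, minus strand: atgttgagattTTGCACTAttttttaatat
TGFBR1, 7mer-A1, chr9:99149487-99149516, plus strand: gggtcctttctgTGCACTAtgaacgcttct
TGFBR1, 7mer-m8, chr9:99152646-99152675, plus strand: tatttttattcTTGCACTggaagaatcgta

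Total counts ran from 18672570 to 21717807 per library, so 3 counts were 0.136 to 0.165 CPM (counts scaled to a common library size). PRR11 had 14 counts against 2029 and SKA2 5 against 1594 in the CRISPRi pair. In the PRR11 and SKA2 set PRR11 stood at 121 CPM in LV-PRR11 and 122 in LV-P+S against 111 in the vector, while SKA2 stood at 60.4 and 63.5 CPM in the libraries labelled LV-SKA2 and LV-P+S against 71.6, below it. The locus of miR-454 had 468 counts in LV-miR454, but also 28 in the library labelled LV-miR301a and none in that labelled LV-3+4. The locus of miR-301a had 29 counts in the former and 34 in the latter of these. Neither microRNA locus had a count in CRISPRd_Control, so these counts do not check the knockouts. All 8 epithelial and A549 markers were at 1 CPM or more in every library. Those that differed 2-fold or more from their own control are given with the other markers. With 1 library per group no difference has a replicate check: each ratio compares libraries, not conditions, and its exact 95% interval covers counting error only. In bulk RNA a change in the share of cells of a type and a change in RNA per cell cannot be told apart.

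Genes counted as measured where treated and control library together held 20 or more reads and 1 of them reached 1 CPM. A call needed a log2 ratio of 1 or more in size, a 2-fold difference after adding 0.5 CPM, and a counting interval without equality. Log2 values below are on that scale, which understates the change of low genes, while folds and ratios are plain CPM ratios. Of the 10 genes, 5 were called higher and 0 lower in the CRISPRi promoter library, where the rule called 15.4% of 15003 genes (9.43% higher and 5.97% lower). Their median log2 ratio was 0.93, against -0.04 over all genes measured. In LV-miR454, 4 were called higher and 1 lower, where the rule called 6.39% of 14912 genes (2.97% higher and 3.42% lower). The median there was 0.63, against -0.0025 over all genes. In CRISPRd_miR454-#1, 1 of 9 measured was called lower and 0 higher (9.71% called, 6.61% higher and 3.1% lower), with a median of -0.24. In CRISPRd_miR301a-#2, 0 of 9 were called (10.9%), with a median of -0.13 and 3 genes just short of 2-fold lower. None of the 10 was called in LV-PRR11 (0.299%), in the libraries labelled LV-SKA2 (0.252%) and LV-P+S (0.261%), or in those labelled LV-3+4 (0.646%) and LV-miR301a (0.731%). The treated libraries of each lentiviral set share a vector, and both knockouts share a control.

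**Figure D1:**
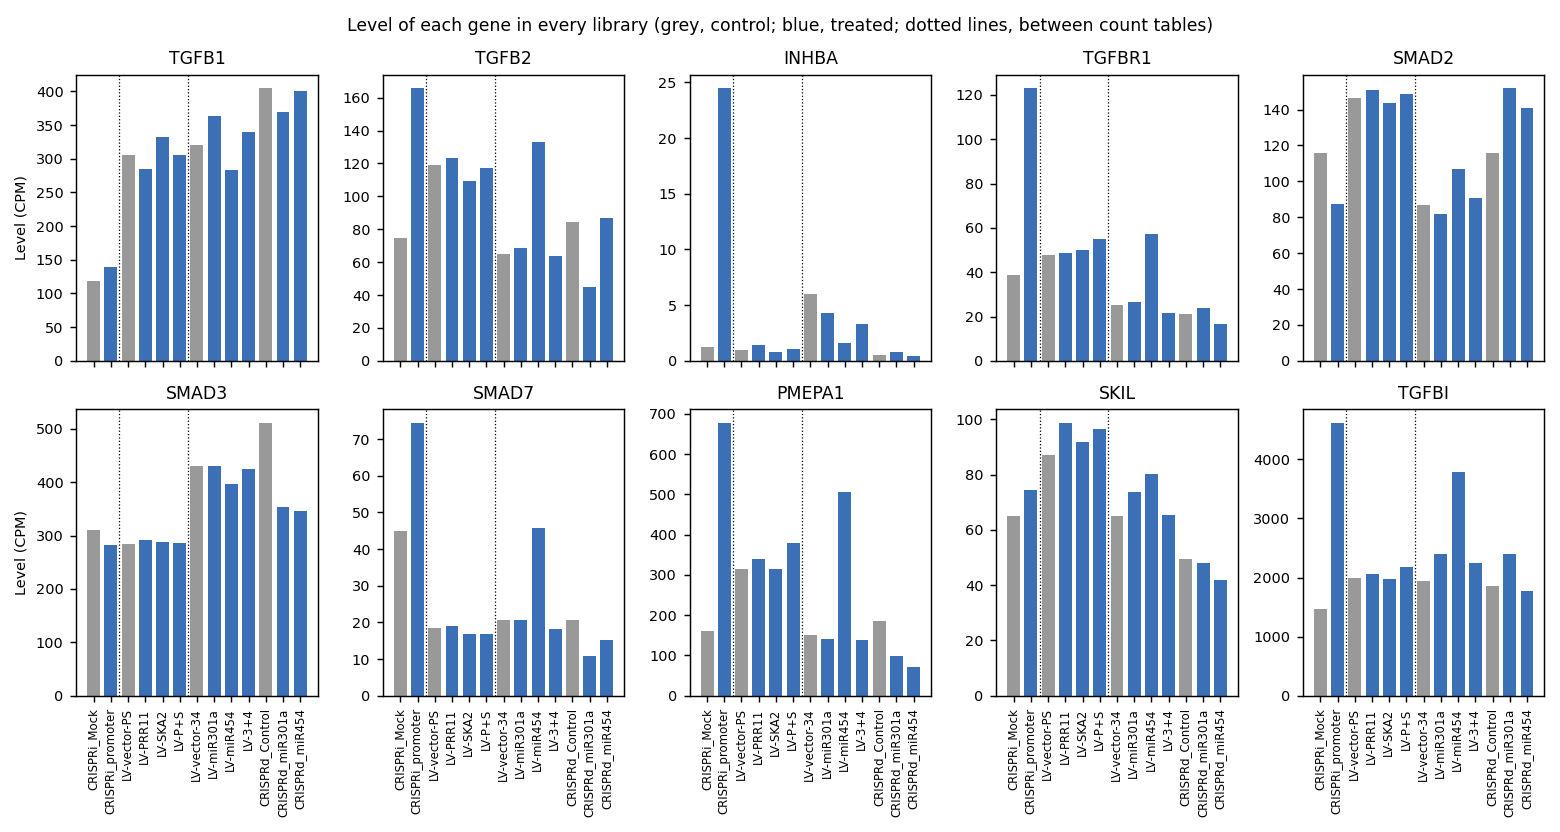
Level of each of the 10 genes in CPM (vertical axis, linear, a scale of its own per gene) in the 13 libraries, with controls in grey and treated libraries in blue; dotted lines part the 3 count tables. For PMEPA1 the bars of the CRISPRi promoter library (677 CPM) and of LV-miR454 (505 CPM) stand highest, and those of the knockouts (97.4 and 72.2 CPM) lowest.

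TGFB1 encodes TGF-beta 1, the main form of the ligand in many tissues, and had the narrowest range of the 9 genes measured in every comparison. Its level was 119 CPM in the CRISPRi mock library and 139 in the promoter library, a ratio of 1.17 (counting interval 1.11 to 1.23). In the PRR11 and SKA2 set it ran from 285 CPM in LV-PRR11 to 333 in the library labelled LV-SKA2, with 305 in the vector. LV-miR454 held 284 CPM and LV-vector-34 held 321, with 339 and 363 in the libraries labelled LV-3+4 and LV-miR301a. The knockouts held 369 (miR-301a) and 401 (miR-454) against 405 CPM. No treated library departed from its control by 1.5-fold, and the log2 ratios spanned 0.40 over the 9 comparisons.

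TGFB2 encodes TGF-beta 2, which needs the coreceptor betaglycan (TGFBR3) for strong binding to its receptors. Its level was 166 CPM in the CRISPRi promoter library and 74.6 in the mock library, 2.22-fold higher (2.09 to 2.36). LV-miR454 held 133 CPM against 65.3 in LV-vector-34, 2.04-fold higher (1.91 to 2.19), and the log2 ratio of 1.03 became 0.99 when libraries were scaled by total counts, which ends the call. The cultures labelled LV-miR301a (68.5 CPM) and LV-3+4 (63.8 CPM) lay near the vector. The knockouts parted here. CRISPRd_miR301a-#2 held 44.8 CPM against 84.5 in the control, a ratio of 0.530 (0.487 to 0.577), just inside the 2-fold line, while CRISPRd_miR454-#1 held 86.7 CPM. Set directly against each other, the miR-301a knockout stood at 0.517 of the miR-454 knockout (0.474 to 0.562, log2 -0.95), also short of a call. In that direct comparison 0 of the 9 measured genes were called, where the rule called 6.4% of all genes. In the PRR11 and SKA2 set TGFB2 ran from 110 to 123 CPM with 119 in the vector. TGFB2-OT1, a transcript that overlaps the TGFB2 message on the same strand, had 446 counts in the CRISPRi promoter library against 159, and 46 in LV-miR454 against 26. It had 0 counts in the libraries labelled LV-3+4 and LV-miR301a, against the same 26, and 0 in all 3 CRISPRd libraries. Adding its counts moved no log2 ratio of TGFB2 by more than 0.03.

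INHBA encodes the beta A subunit of activin A, a ligand that signals through SMAD2 and SMAD3 by its own receptors. It stood at 6.02 CPM or less in 12 of the 13 libraries. Among the 10 genes it differed most in the CRISPRi pair, with 540 counts (24.5 CPM) in the promoter library and 26 (1.27 CPM) in the mock library. That is 19.3-fold higher (13.1 to 29.9, log2 3.82). Among the lentiviral microRNA libraries INHBA went the other way from TGFB2, with 31 counts (1.64 CPM) in LV-miR454 and 115 (6.02 CPM) in LV-vector-34, a ratio of 0.272 (0.177 to 0.408, log2 -1.61). The other libraries of that set lay between, with 63 counts in the library labelled LV-3+4 (ratio 0.546, 0.395 to 0.749) and 83 in the library labelled LV-miR301a (ratio 0.708, 0.527 to 0.947). All 3 intervals lay below equality, and all 3 ratios share this vector, whose INHBA level was 10.8-fold that of CRISPRd_Control (0.557 CPM) in the same table. In the PRR11 and SKA2 set 15 to 27 counts were seen, with 19 in the vector, too few to tell the libraries apart. CRISPRd_Control had 11 counts and the knockouts 15 (miR-301a) and 8 (miR-454). Those 2 comparisons fell below the measuring filter.

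TGFBR1, also known as ALK5, is the kinase that starts the SMAD signal. Its level was 123 CPM in the CRISPRi promoter library and 39.0 in the mock library, 3.16-fold higher (2.92 to 3.42). LV-miR454 held 57.1 CPM against 25.2 in the vector, 2.27-fold higher (2.04 to 2.53). Both sites shown above match the seed of miR-454, and whether they bear on this level was not tested. The cultures labelled LV-miR301a and LV-3+4 held 26.5 and 21.7 CPM, the latter at a ratio of 0.863 (0.755 to 0.986). In the knockouts it stood at 24.0 CPM (miR-301a) and 16.7 CPM (miR-454) against 21.2, and the direct ratio between them was 1.43 (1.24 to 1.66). The library labelled LV-P+S held 55.2 CPM against 47.8, a ratio of 1.15 (1.06 to 1.26). The libraries of the PRR11 and SKA2 set thus differed by far less than those of the CRISPRi pair.

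SMAD2 and SMAD3, the proteins that the receptor phosphorylates, passed the size rule in 0 of 9 comparisons each. SMAD2 was 87.2 CPM in the CRISPRi promoter library against 116, a ratio of 0.754 (0.710 to 0.801). It stood above the control in both knockouts, at 152 CPM (miR-301a, ratio 1.31, 1.24 to 1.39) and 141 CPM (miR-454, ratio 1.22, 1.15 to 1.29) against 116. SMAD3 lay below the control in both knockouts. Its level was 353 CPM (miR-301a, ratio 0.692, 0.670 to 0.714) and 345 CPM (miR-454, ratio 0.676, 0.655 to 0.698) against 511. In the CRISPRi pair SMAD3 stood at 282 against 310 CPM, a ratio of 0.909 (0.878 to 0.942). The 4 libraries of the PRR11 and SKA2 set ran from 285 to 292 CPM for SMAD3 and from 143 to 151 for SMAD2, a range narrower than that between the 2 controls of the microRNA table.

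**Figure D2:**
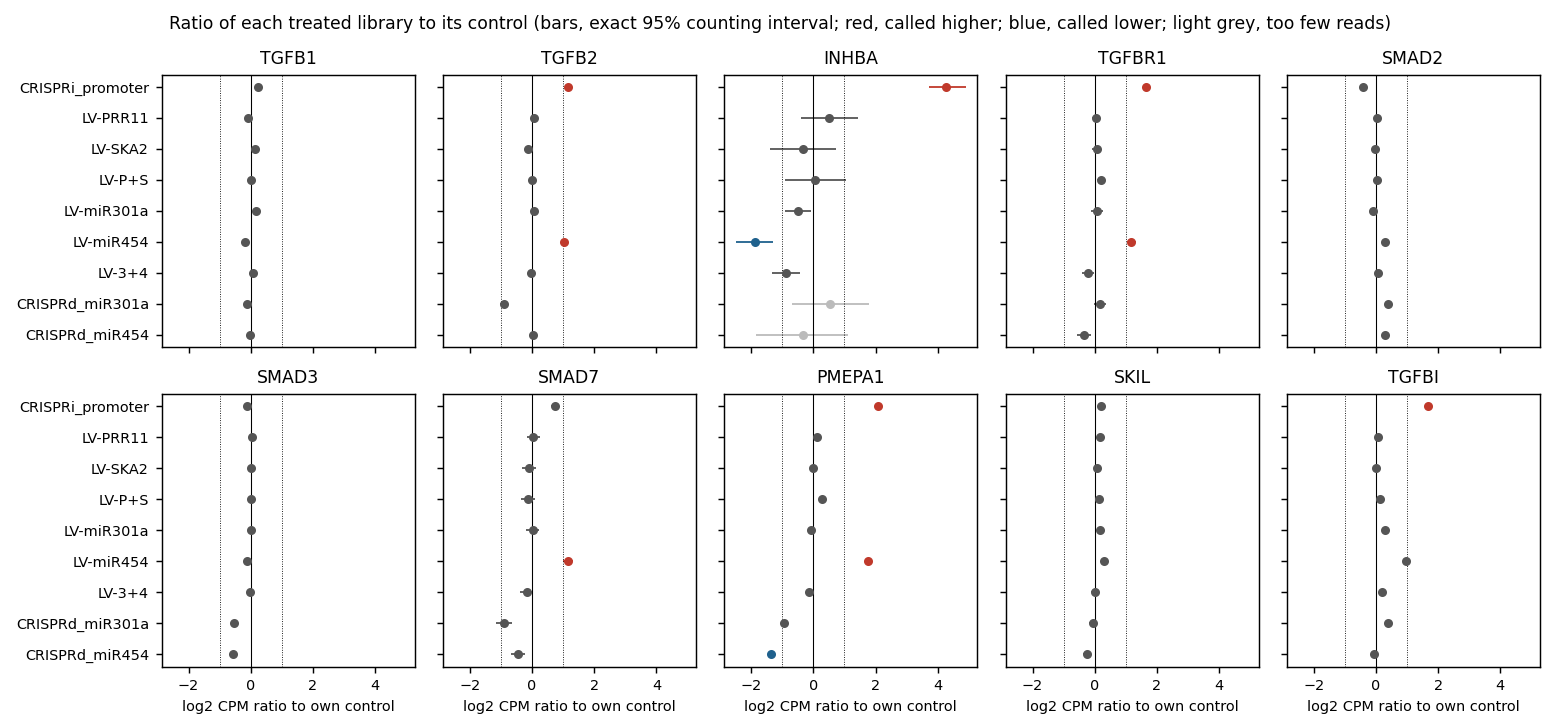
Log2 ratio of CPM of each treated library to its own control (horizontal axis) for the 10 genes, without pseudocount, with exact 95% counting intervals; dotted lines mark 2-fold, red points were called higher, blue points lower, and light grey points had too few reads. PMEPA1 spans the widest range of the 9 genes measured throughout, from -1.36 in CRISPRd_miR454-#1 to 2.08 in the CRISPRi promoter library on the scale with 0.5 CPM added.

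PMEPA1, a membrane protein that holds SMAD2 and SMAD3 away from the receptor complex and is itself induced by TGF-beta, was called in 3 comparisons. Its level was 677 CPM in the CRISPRi promoter library and 160 in the mock library, 4.24-fold higher (4.08 to 4.40). LV-miR454 held 505 CPM against 150 in the vector, 3.36-fold higher (3.22 to 3.50), while those labelled LV-miR301a (141 CPM) and LV-3+4 (137 CPM) lay slightly below that vector. CRISPRd_miR454-#1 held 72.2 CPM against 186, a ratio of 0.388 (0.364 to 0.413, log2 -1.36). CRISPRd_miR301a-#2 held 97.4 CPM, a ratio of 0.524 (0.495 to 0.554, log2 -0.93), which is just short of a call. PMEPA1 thus lay above its control in the LV-miR454 line and below it in the line labelled as the knockout of that precursor. The PRR11 and SKA2 set held 315 CPM in the library labelled LV-SKA2, 316 in the vector, 340 in LV-PRR11 and 380 in the library labelled LV-P+S, the last at a ratio of 1.20 (1.16 to 1.25).

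SMAD7 blocks the receptor and recruits ubiquitin ligases to it. Its level was 45.7 CPM in LV-miR454 and 20.6 in the vector, 2.22-fold higher (1.97 to 2.51). In the CRISPRi promoter library it was 74.4 CPM against 45.0, a ratio of 1.65 (1.52 to 1.79) that fell short of the size rule. The miR-301a knockout held 10.9 CPM and the miR-454 knockout 15.1 CPM against 20.5, ratios of 0.533 (0.448 to 0.633) and 0.735 (0.629 to 0.859). Both knockouts lay below the control, and neither was called. SMAD7 levels stood on the same side of the control as those of PMEPA1 in these 4 comparisons. SMAD7 has no seed site in the UTR searched, while PMEPA1 has an 8mer. Whether such sites bear on these levels was not tested.

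SKIL encodes SnoN, a nuclear repressor of SMAD complexes, and was called in 0 of 9 comparisons. It stood at 74.4 CPM against 64.9 in the CRISPRi pair (ratio 1.15, 1.06 to 1.23) and at 80.2 against 65.1 in LV-miR454 (ratio 1.23, 1.14 to 1.33). The PRR11 and SKA2 set ran from 87.2 CPM in the vector to 98.6 in LV-PRR11, and the knockouts held 47.9 (miR-301a) and 41.9 CPM (miR-454) against 49.6. The feedback genes therefore differed among themselves: PMEPA1 spanned 3.44 log2 units over the 9 comparisons, SMAD7 2.01 and SKIL 0.54.

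TGFBI, a secreted matrix protein named for its induction by TGF-beta, was 4615 CPM in the CRISPRi promoter library and 1462 in the mock library, 3.16-fold higher (3.12 to 3.20). LV-miR454 held 3784 CPM against 1944 in the vector, a ratio of 1.95 (1.92 to 1.97), whose log2 value of 0.96 was just under the rule. The library labelled LV-miR301a held 2392 CPM (ratio 1.23, 1.21 to 1.25) and the library labelled LV-3+4 2240 CPM (ratio 1.15, 1.14 to 1.17). TGFBI did not follow PMEPA1 in the knockouts. It was 2403 CPM (miR-301a, counting interval of the ratio 1.28 to 1.32) and 1779 CPM (miR-454, ratio 0.960, 0.946 to 0.975) against 1852. The PRR11 and SKA2 set ran from 1978 to 2185 CPM with 1992 in the vector.

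LV-vector-34 shares a table with the CRISPRd libraries, so the knockouts could be set against another control. Between the controls themselves 1 of the 10 genes was called, where the rule called 4.35% of genes (2.62% higher): INHBA was 10.8-fold higher in LV-vector-34 (5.81 to 22.2). The other 9 ratios of LV-vector-34 to CRISPRd_Control ran from 0.751 for SMAD2 to 1.31 for SKIL. Against LV-vector-34 the rule called 8.84% of genes in CRISPRd_miR301a-#2 (3.64% lower) and 9.27% in CRISPRd_miR454-#1 (3.38% lower), and 1 and 2 of the 10 genes, all lower. PMEPA1 was still lower in CRISPRd_miR454-#1 (ratio 0.480, 0.449 to 0.513), and SMAD7 was at 0.532 in CRISPRd_miR301a-#2 and 0.734 in CRISPRd_miR454-#1. SMAD3 moved closer to equality, to 0.822 and 0.804, and SMAD2 farther from it, to 1.75 and 1.62. TGFB2 was at 0.686 in CRISPRd_miR301a-#2 and 1.33 in CRISPRd_miR454-#1. INHBA was called lower in both, at ratios of 0.134 (0.0728 to 0.231) and 0.0730 (0.0308 to 0.149), with the high level on the side of LV-vector-34.

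**Figure D3:**
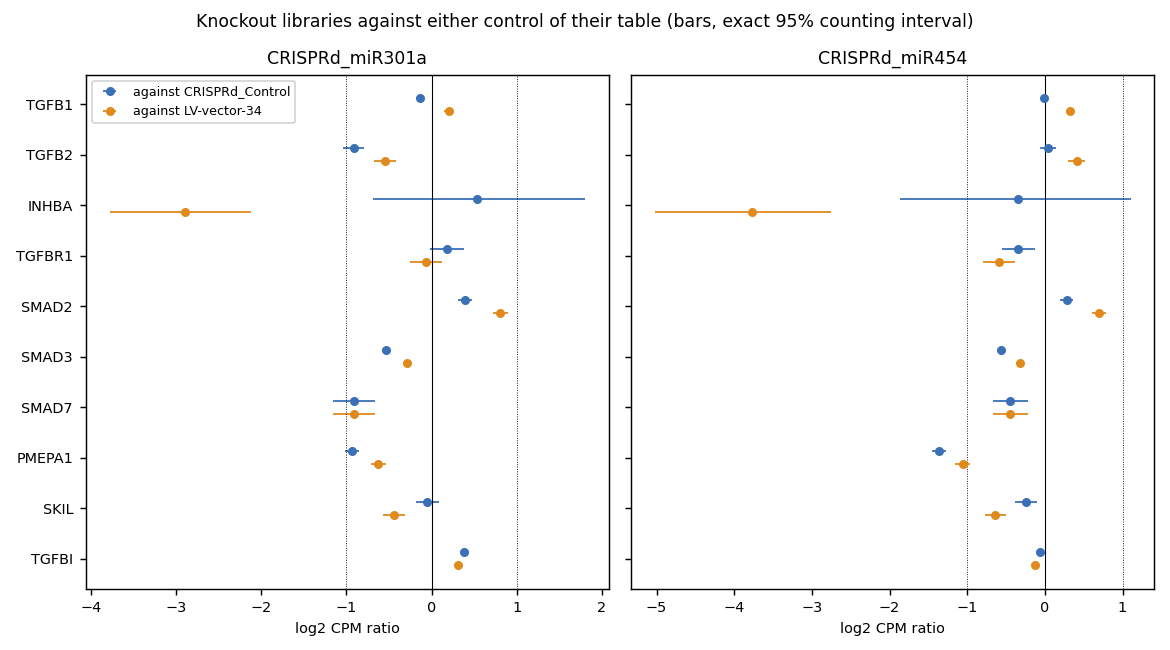
Log2 ratio of CPM (horizontal axis) of the miR-301a knockout (left) and the miR-454 knockout (right) for the 10 genes, against CRISPRd_Control (blue) or LV-vector-34 (orange), with exact 95% counting intervals; dotted lines mark 2-fold. SMAD7 and PMEPA1 lie left of 0 against both controls, while INHBA lies far left only against LV-vector-34.

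Around these 10 genes, 86 further genes of the pathway were listed by role. The rule called 9.43% of all measured genes higher and 5.97% lower in the CRISPRi promoter library. Of the listed pathway genes, 23 of 73 measured were higher there and 5 lower, with a median log2 ratio of 0.29. Targets of the pathway led this count: 13 of 19 measured were higher and 1 lower, with a median of 1.59. Among them were TAGLN, an actin-binding protein (354 against 34.4 CPM, log2 3.34), SNAI2, a transcription factor of mesenchymal change (8.43 against 0.438 CPM, 3.25), and the integrin chain ITGB3 (16.1 against 1.27 CPM, 3.23). The lower target was ID2 (-1.32), an inhibitor of differentiation factors, chosen after its value was seen. Of 11 genes that hold or release latent ligand, 4 were higher and 0 lower, including the activator thrombospondin THBS1 (2.10), the latent binding protein LTBP2 (2.05) and the integrin chain ITGB6 (1.61). Antagonists in the medium had 2 of 4 higher, GREM1 (18.4-fold, 9.11 to 43.4), which binds bone morphogenetic proteins (BMPs), and the activin trap FST (log2 1.11). Repressors had 2 of 12 higher, LDLRAD4 (1.48), a relative of PMEPA1, and the ubiquitin ligase SMURF2 (1.08). Receptors had 0 of 9 higher and 1 lower, TGFBR3 (-1.89), which encodes betaglycan, and their median was -0.42. Other ligands were split, with INHBB (-1.81) and BMP7 (-1.18) lower and GDF11 (1.09) among the 2 higher of 9. The other SMADs and cofactors had 0 higher and 1 lower of 9, SMAD9 (-1.18), with a median of -0.59.

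In LV-miR454 the rule called 2.97% of all measured genes higher and 3.42% lower. Of the pathway genes, 8 of 72 measured were higher there and 4 lower, with a median of 0.05. The targets held most of the higher ones, with 6 higher and 1 lower of 18 and a median of 0.70. TAGLN was 107 CPM against 29.5, 3.65-fold higher (3.32 to 4.01), and CCN2, connective tissue growth factor, was 172 CPM against 54.8, 3.15-fold higher (2.93 to 3.38). THBS1 (2.21) and ITGB6 (1.84) were higher as in the CRISPRi promoter library, while LRRC32, which anchors latent ligand on the cell surface, was lower (0.317 against 2.41 CPM, log2 -1.83). BMP7 (-1.48) and INHBE (-1.04), another activin subunit gene, were lower as well. The library labelled LV-miR301a had 1 gene called of 72, COL1A1 (1.34), and the library labelled LV-3+4 had 0 of 71. In the PRR11 and SKA2 set 0 were called of 73 in LV-PRR11, 75 in the library labelled LV-SKA2 and 73 in the library labelled LV-P+S.

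The knockouts had pathway genes on both sides. The rule called 10.9% of all measured genes in CRISPRd_miR301a-#2, both directions together. There 7 of 75 pathway genes were higher and 7 lower, with a median of 0.13. BMP ligands made up 3 of the higher ones: BMP6 was 65.2 against 8.51 CPM (7.66-fold, 6.52 to 9.06), BMP2 7.65 against 1.62 CPM (4.72-fold, 3.20 to 7.16) and BMP4 61.8 against 21.8 CPM (2.83-fold, 2.53 to 3.17). The BMP receptor BMPR1B (log2 1.40) and the nodal receptor ACVR1C (ratio 16.5, 4.20 to 142, on very few control reads) were also higher. GREM1, an antagonist of these ligands, was lower (-2.46), as was SMURF2 (-1.05), while CHRD, another such antagonist, was higher (1.20). The integrin chains ITGB8 (1.29) and ITGB6 (-1.15) went opposite ways. Targets had 0 higher and 4 lower of 17, among them HMGA2, a chromatin protein, at -4.09 and TAGLN at -2.47. TAGLN stood at 6.58 CPM in this knockout and 38.7 in the control.

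Of all measured genes in CRISPRd_miR454-#1, 6.61% were called higher and 3.1% lower. Of the pathway genes there, 4 of 76 were higher and 8 lower, with a median of 0.03. BMP4 (1.22) was higher again, and so was TGFBR2, the type 2 receptor, at 243 against 117 CPM (2.07-fold, 1.97 to 2.18). Antagonists had 3 of 4 lower: NOG at -1.43, and GREM1 and FST at ratios of 0.0193 (0.000481 to 0.112) and 0.0373 (0.000914 to 0.225), both nearly absent from the knockout. THBS1 was lower (-1.34). Targets had 2 higher and 4 lower of 19, with TAGLN (-1.77) among the lower and fibronectin, FN1 (1.66), among the higher ones. Against LV-vector-34, TAGLN was called lower in both knockouts (-2.08 for miR-301a and -1.38 for miR-454). Against that vector 5 of 75 pathway genes were higher and 11 lower for miR-301a (8.84% of all genes called). For miR-454, 8 of 76 were higher and 10 lower (9.27% called). The medians of the targets were -0.77 and -0.52 there, but -0.02 and 0.10 against CRISPRd_Control. Between the controls, 4 of 72 pathway genes, 3 of them targets, were higher in LV-vector-34 and 0 lower (4.35% called).

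**Figure D4:**
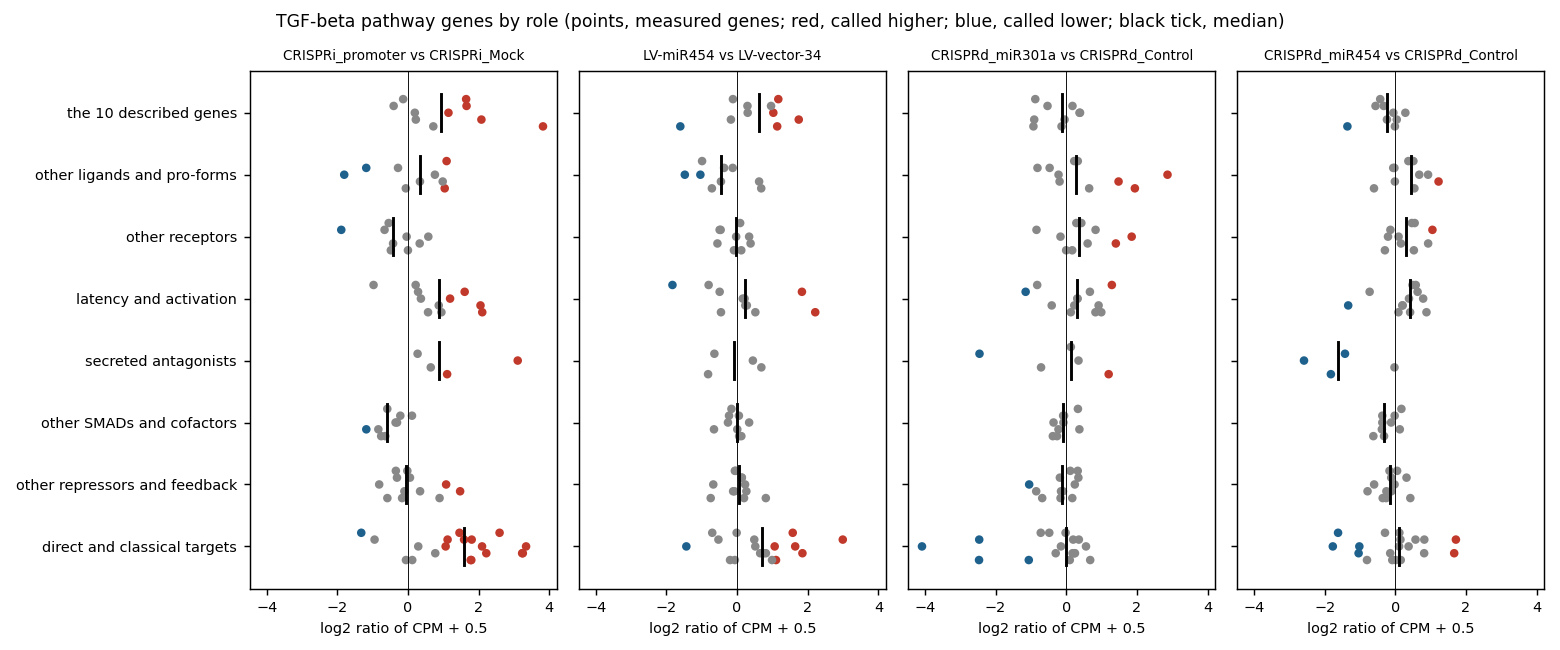
Log2 ratio of CPM plus 0.5 (horizontal axis) for the 10 genes and for the 86 further pathway genes by role, in 4 comparisons; each point is a measured gene, red called higher and blue called lower, and black ticks are medians. The targets have a median of 1.59 in the CRISPRi promoter library and 0.70 in LV-miR454, and points on both sides in the knockouts.

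Markers of other cell types also differed between the libraries. The summed level of 10 fibroblast markers was 543 CPM in the CRISPRi promoter library and 107 in the mock library, with 6 of 7 measured higher and 0 lower. Among these were FBN1 (207 against 22.1 CPM, log2 3.20) and COL5A1 (300 against 72.3 CPM, 2.04), which held the largest parts of both sums. The others called were THY1 (4.04 against 0.633 CPM, 2.00), the receptor PDGFRA (31 counts against 2, 1.67), LUM (3.58 against 0.828 CPM, 1.62) and COL1A1 (1.46). The other measured marker, COL3A1, lay below the mock library, at 0.862 against 1.90 CPM (ratio 0.454, 0.248 to 0.804), short of a call. DCN, COL1A2 and PDGFRB stood at 0.0453, 0.0907 and 0.136 CPM in the promoter library. In LV-miR454 the sum was 310 CPM against 81.4 in the vector, with 4 higher and 1 lower of 5 measured. COL5A1 alone was 212 CPM against 40.9. The lower marker was COL3A1, at 3.17 CPM against 9.31 in the vector. The library labelled LV-miR301a held 162 CPM, with COL1A1 (1.34) and COL3A1 (1.01) higher of 4 measured, where 0 of the 10 TGF-beta genes were called. That labelled LV-3+4 held 104 CPM, with 0 of 4 called. The sum was 35.0 CPM in CRISPRd_miR301a-#2 (2 of 4 lower) and 110 in CRISPRd_miR454-#1 (1 of 4 lower) against 167 in the control, and 183 to 198 in the PRR11 and SKA2 set. THY1 had 81 counts in CRISPRd_Control and 0 in both knockouts, but only 10 in LV-vector-34. Between these controls, 1 of 5 measured fibroblast markers was higher and 3 lower in LV-vector-34. Several of these markers are matrix genes, and COL1A1 stands in the target list too. Their part in the result was not tested.

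Of the 8 epithelial and A549 markers, 2 were lower in the CRISPRi promoter library, the adhesion genes CDH1 (28.7 against 87.3 CPM, log2 -1.59) and EPCAM (2.22 against 7.35 CPM, -1.53). KRT7 (6239 against 3599 CPM, ratio 1.73) and ALDH1A1 (12762 against 9357 CPM, ratio 1.36) lay above the mock library, and 6 of the 8 below it. The 8 markers summed to 30921 CPM in the promoter library and 30226 in the mock library. CDH1, which encodes E-cadherin, was also lower in LV-miR454 (ratio 0.488, 0.451 to 0.528, log2 -1.03). KRT7 stood at 4685 CPM there against 3181 in the vector, and 3 of the 8 markers lay above that vector and 5 below it. CDH1 was higher in both knockouts, at 169 CPM (miR-301a, 1.48) and 199 CPM (miR-454, 1.71) against 60.3. In each knockout 2 of the 8 markers were higher and 0 lower, where the rule called 10.9% (miR-301a) and 9.71% (miR-454) of all measured genes. Besides CDH1 these were KRT18 for miR-301a (6426 against 3012 CPM) and AKR1B10 for miR-454 (4849 against 1970 CPM). KRT7 (2030 and 2486 against 3535 CPM) and EPCAM (2.32 and 2.74 against 3.29 CPM) lay below the control in both. Against LV-vector-34 the CDH1 ratios were 1.65 and 1.94, short of a call. There 0 of 8 were higher and 1 lower in each knockout, EPCAM, with 8.27 CPM in that vector. Immune markers summed to 31.6 to 160 CPM over the 13 libraries, with CD68, a lysosomal protein, at 23.0 to 144 CPM. In CRISPRd_miR301a-#2, 3 of 3 measured immune markers were higher: PTPRC (75 counts against 1), CD68 (112 against 43.3 CPM) and CD14 (12.9 against 5.98 CPM). In CRISPRd_miR454-#1, 2 of 2 were higher, CD68 (144 CPM) and CD14 (15.9 CPM). CD68 was higher in the CRISPRi promoter library too (80.0 against 27.5 CPM), where 1 of 2 measured was called. The other, CD14, stood at 2.81 against 3.94 CPM there (ratio 0.713, 0.504 to 1.005). Endothelial markers summed to 0.341 to 1.70 CPM and platelet markers to 1.27 to 5.22 CPM. The part of these markers in the results on the 10 genes was not tested.

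For the 3 genes with the widest range, the genes of most similar pattern were ranked by the root mean square difference of log2 ratios over the 9 comparisons, among 10531 genes measured in all 9. Nearest to PMEPA1 were THBS1 (0.30), FRMD6 (0.30) and TGFB1I1 (0.31). Nearest to TGFB2 were ZFP36L1 (0.15), OGFRL1 (0.18) and PLK2 (0.19). Nearest to SMAD7 were NKX2-5 (0.14), OGFRL1 (0.15) and TAX1BP3 (0.16). The 9 comparisons share 4 controls, so these distances describe the libraries and were not tested. INHBA was not ranked, as it was not measured in the knockouts.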

How the data were processed

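Expected counts per gene, not normalised, were deposited in 3 tables, made with RSEM 1.3.3 and Bowtie2 2.3.5.1 on GRCh38.p13 per the submitters' processing notes. The sources used here give neither annotation release nor strand setting, so reads of antisense or overlapping transcripts cannot be told apart. Expected counts were rounded. In the microRNA and CRISPRd table, 4840 numbered copies of symbols (2.02% of counts) were summed per symbol, and 181 nameless entries of the CRISPRi libraries (0.355% and 0.431% of counts) were left out. CTGF was read as CCN2. The tables list 39735, 59653 and 17976 genes, so ratios were formed within a table.

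Library sizes were scaled by TMM (edgeR 4.0.16, R 4.3.3). Exact intervals are Clopper-Pearson at 95% (Python 3.11.15, numpy 2.4.6, pandas 2.3.3, scipy 1.17.1), and they cover counting error only, as PCR copies of a molecule were not marked. With 1 library per group no p-value was computed. The size rule was tested on data simulated with counting noise only, which says nothing of the spread between cultures. All 10 genes are named, with up to 3 called genes per pathway list and comparison by the counting bound farthest from equality, and the 3 genes of most similar pattern, at 5 CPM or more in each table, for the 3 genes of widest range. Some genes that this rule names are left out here. The 10 genes and the lists were chosen with earlier results of these data known. Alternatives were DESeq2 1.42.0 size factors, total counts, a pseudocount of 2 CPM, no low-count filter, 5 CPM in either library, a 1.5-fold rule, and LV-vector-34 as control. Separate numbered copies and TGFB2-OT1 counts added to TGFB2 were chosen after seeing the data.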

Additional observations from a re-analysis of the deposited data

How the results depend on the processing

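No paired analysis was possible because each group is 1 library, and for the same reason no library could be left out. Of 570 values of single genes of the 10, leaving out the 1.5-fold rule and pairs in which the main filter did not measure the gene, 569 had the same call as in the main setting. TGFB2 in LV-miR454 lost its call, at 0.99 with total counts. The sign changed in 10 of the 570, in 0 of those called, and the main log2 ratio was at most 0.18 in size where it did. In the order CRISPRi, LV-PRR11, LV-SKA2, LV-P+S, LV-miR301a, LV-miR454, LV-3+4, CRISPRd_miR301a-#2 and CRISPRd_miR454-#1, the main rule called 2311, 40, 34, 35, 108, 953, 95, 1638 and 1457 genes of all measured. A pseudocount of 2 CPM called 1475, 11, 8, 6, 33, 428, 30, 1012 and 828. A 1.5-fold rule called 5286, 158, 186, 140, 381, 2725, 338, 3690 and 3407. With 5 CPM required, from LV-PRR11 on, it was 5, 7, 3, 28, 522, 26, 1038 and 872. Without a filter the libraries labelled LV-SKA2, LV-P+S and LV-3+4 had 57, 61 and 153, and with numbered copies apart those labelled LV-miR301a and LV-3+4 had 334 and 320. Pathway genes called by the 1.5-fold rule were 43 in CRISPRi, 1 in LV-SKA2, 1 in LV-P+S, 2 in LV-miR301a, 29 in LV-miR454, and 29 and 26 in the knockouts of miR-301a and miR-454, against 28, 0, 0, 1, 12, 14 and 12. With 5 CPM the knockouts had 9 and 7, and with a pseudocount of 2 CPM CRISPRd_miR454-#1 had 7. Of the 10 genes, the 1.5-fold rule called 1 in LV-3+4 and 3 in CRISPRd_miR301a-#2, and LV-vector-34 as control called 1 and 2 in the knockouts, against 0 and 1, the added call being INHBA in each. Total counts moved the median over all genes in CRISPRd_miR454-#1 from -0.01 to -0.12.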

Other observations

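Promoter windows of the 10 genes, 250 bases before to 50 after each start in RefSeq (GRCh38.p14), numbered 27. The palindrome GTCTAGAC that SMAD3 and SMAD4 bind was in 0 of 27, against 0.202% of 35116 windows of all genes. The shorter element CAGACA, searched on both strands, was in 6 of 27 (22.2%), against 16.9% of all windows, and the AP-1 element TGACTCA in 1 of 27 (3.70%), against 4.95%. The windows are not independent, as some genes have several and some of these overlap. By gene, 5 of the 10 had CAGACA in a window. A missing match says only that these letters are not in the window.

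The antisense transcript INHBA-AS1 had 6 to 12 counts in the 7 libraries of the microRNA table and 0 and 3 in the CRISPRi mock and promoter libraries. TGFB2-AS1 had 3 to 14 counts in these 9 libraries.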
